A study of Citrullus lanatus with 30 samples.

Results

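The genes that encode proteins of the cytosolic ribosome were followed in watermelon (Citrullus lanatus) fruit flesh. They were the rows of the deposited expression table whose description holds the words ribosomal protein together with 40S or 60S, the small and the large subunit. Of 22596 genes in the table, 166 matched, and 159 were kept, since 3 or more of the 30 libraries listed them at 1 TPM or above, 65 of the 40S and 94 of the 60S subunit. TPM is a transcript's abundance per unit length, scaled to a fixed total per library, so levels of different genes can be compared. RNA was sequenced from flesh of wild type (WT) fruit and of a mutant named clnor in the labels, each at 5 ages counted in days after pollination (DAP), namely 10, 18, 26, 34 and 42 DAP. Each of the 10 groups has 3 libraries. The labels give no cultivar and do not say how the mutant was made, which allele it carries or whether it is 1 line, and the gene descriptions do not use the name NOR, so the mutated gene was not looked up. They also do not say whether replicates are separate fruits or plants. The p-values therefore reflect variation among these libraries, which could be technical.

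A cytosolic ribosome joins a 40S subunit, which holds the mRNA and reads its codons, to a 60S subunit, which forms the peptide bonds and releases the chain through an exit tunnel. Each subunit needs a single copy of nearly every protein, except for the acidic stalk proteins, which are present in several copies and recruit elongation factors. Plants keep several genes for most of these proteins, and growing tissues hold much of their mRNA. In tomato, NOR is a NAC transcription factor that ripening fruit needs.

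Of the 7 matching rows that were left out, 4 were listed at 0 in all 30 libraries. Nearest below the minimum was L36 (Cla97C02G046190), with 1 library at 1 TPM or more and a highest value of 1.06 TPM, and the other 2 were L44 (Cla97C09G166860) and P0 (Cla97C03G051630), with highest values of 0.51 and 0.07 TPM. Just inside were P2-like (Cla97C04G076720), with 5 libraries at 1 TPM or more, and SA (Cla97C00G000070), with 16, whereas the other 157 members reached 1 TPM in all 30 libraries. The words of the rule miss 2 genes described as 40S ribosomal S15a-1-like protein, so the S15a-2-like gene is the only S15a member here. Those 2 genes, Cla97C03G052920 and Cla97C09G181480, were at 286 ± 47.5 and 531 ± 40.2 TPM (SD, n = 3) in WT at 34 DAP and at 385 ± 129.9 and 678 ± 129.6 TPM in clnor, above the S15a-2-like gene in WT (180.2 ± 27.3 TPM). Named by protein, the 159 members encode 70 proteins, of which 61 have at least 2 member genes, 150 genes in all. Reads of near-identical copies can be split between genes by the authors' processing, so the value of a single copy is less certain than the sum over a protein's genes.

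Tests were run on log2(TPM + 1) over 16503 genes, and a member was called where its limma adjusted p was below 0.05. The scale understates changes of genes at low level. Sequencing depth per library is unknown, since TPM keeps none. Summed TPM of the table was 970727 to 985840 per library. The flesh ripening markers, 3 phytoene synthases of carotenoid synthesis and 2 alkaline alpha-galactosidases of sugar unloading, were measured as a check of the labels. Their summed level went from 824 ± 106 TPM (SD, n = 3) at 10 DAP to 4732 ± 518 TPM at 42 DAP in WT, and from 1039.9 ± 207 to 1327 ± 219 TPM in clnor. The alpha-galactosidase Cla97C04G070460 carried most of this sum, at 652 ± 105 and 4454 ± 495 TPM in WT, and of the 5 markers 2 were called higher and 1 lower in WT at 42 than at 10 DAP. In clnor against WT 2 were called higher and 2 lower at 34 DAP, and the same counts were found at 42 DAP. By the members' own levels (Pearson correlation of log2(TPM + 1) over the 159 members with group means, a library's own group taken without it), 22 of 30 libraries were nearest to their own group and 8 to another. WT 18 DAP replicate 3 was nearer to clnor 18 DAP (0.993) than to WT 18 DAP (0.988). Likewise clnor 18 DAP replicate 3 was nearer to WT 18 DAP (0.995) than to its own group (0.984), although the ripening markers at 18 DAP summed to 1463 to 2040 TPM in WT and 987 to 1246 TPM in clnor, without overlap. The library clnor 10 DAP replicate 3 was nearest to clnor 18 DAP (0.990, against 0.965 with its own group). The other 2 libraries of clnor 10 DAP, whose own group then includes replicate 3, were nearest to WT 10 DAP (0.993 and 0.988, against 0.984 and 0.986). WT 42 DAP replicate 1, clnor 34 DAP replicate 2 and clnor 42 DAP replicate 2 were nearest to the other late age of their own genotype. Counts of called members with single libraries left out stand beside the comparisons or as ranges.

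The members were among the most abundant transcripts of the flesh. Their median level, averaged over all libraries, was 208 TPM, against 17.2 TPM over all genes tested, and was close in the 40S (211 TPM) and the 60S members (204 TPM). A mean of 100 TPM or more was reached by 120 of 159 members (75.5%) and by 1851 of 16503 genes tested (11.2%). All members together took 3.22% (WT 42 DAP replicate 3) to 6.16% (clnor 10 DAP replicate 3) of a library's TPM, with a median of 4.51%. The level was spread unevenly, since the 20 highest members held 34.7% of the summed level. Within a protein, the most abundant gene held a median of 67.0% of the sum over its genes, from 38.6% for S13 to 98.9% for S24.

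The 6 highest members were L7a-2-like, S20-2-like, S28, L27, S24 and S2-4-like. L7a-2-like (Cla97C05G095490) had the highest mean, 1049 TPM, and ran from 599 TPM (WT 42 DAP replicate 3) to 1412 TPM (clnor 18 DAP replicate 1). S20-2-like (Cla97C05G089290) followed with a mean of 1030.4 TPM and a range of 393 TPM (WT 42 DAP replicate 3) to 1572 TPM (clnor 26 DAP replicate 3). Both had their lowest value in the same library, and both were lower in all 3 WT libraries of 42 DAP than in all 3 of 10 DAP. S28 (Cla97C04G072230) averaged 998 TPM, L27 (Cla97C07G137620) 944 TPM, S24 (Cla97C06G118860) 857 TPM and S2-4-like (Cla97C04G070410) 848 TPM. S2 lies beside the channel through which mRNA enters the small subunit. In WT, L7a-2-like was at 1070.2, 1234 and 1048 TPM at 10 DAP and 847, 639 and 599 TPM at 42 DAP, a log2 difference of -0.70 ± 0.16 (SE, limma adjusted p = 0.000727), and S20-2-like fell by more, from 1211, 1117 and 982 TPM to 615, 461 and 393 TPM, -1.19 ± 0.21 (adjusted p = 7.36e-05). S24 also fell in WT from 10 to 42 DAP, -0.66 ± 0.19 (adjusted p = 0.00657), S28 was called in no comparison, and L27 was called lower in clnor at 26 and 42 DAP than at 10 DAP, calls that were lost without clnor 10 DAP replicate 3 (adjusted p = 0.137 and 0.205).

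**Figure D1:**
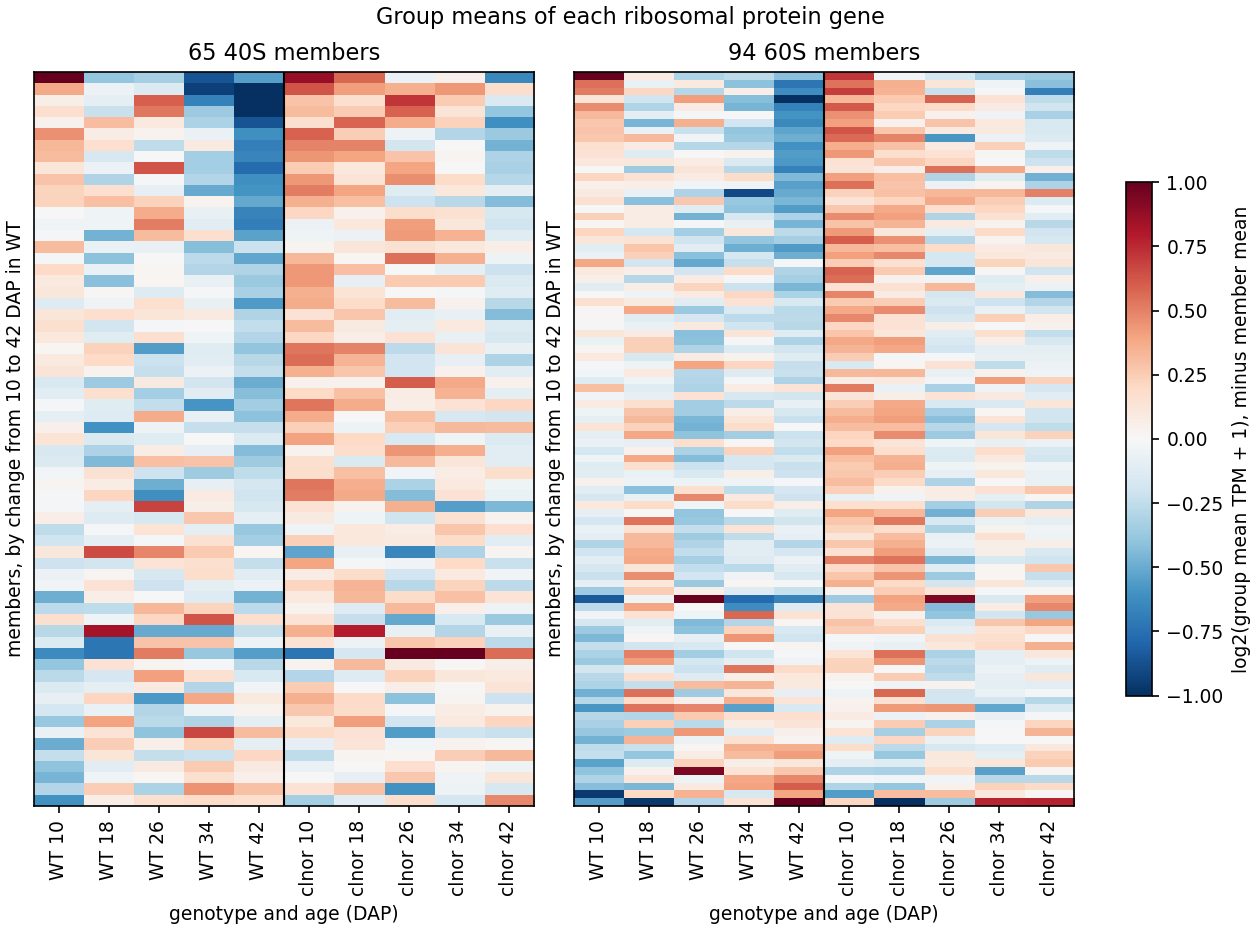
Heat map of the 65 40S members (left) and the 94 60S members (right), 1 row per member ordered by its change from 10 to 42 DAP in WT, over the 10 groups (columns), coloured by log2 of the group mean TPM + 1, minus the member's mean over the groups, from -1 (blue) to 1 (red). The highest group mean was in clnor at 10 DAP for 54 members and the lowest in WT at 42 DAP for 54. The clnor 10 DAP means include replicate 3, the library with the highest summed level (60465 TPM).

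Summed over all 159 members, the level was nearly flat in WT up to 34 DAP and lowest at 42 DAP. WT groups averaged 43099 ± 3432 TPM (SD, n = 3) at 10 DAP, 42533 ± 2909 TPM at 18 DAP, 43649 ± 3721 TPM at 26 DAP, 41703 ± 2535 TPM at 34 DAP and 34483 ± 4058 TPM at 42 DAP. All 3 WT libraries of 42 DAP (31602 to 39123 TPM) lay below the other 12 WT libraries, of which the lowest was at 39327 TPM. In clnor the sum was 51552 ± 7988 TPM at 10 DAP, 49311 ± 7546 TPM at 18 DAP, 45873 ± 2212 TPM at 26 DAP, 45540 ± 6088 TPM at 34 DAP and 39591 ± 6226 TPM at 42 DAP. The clnor mean was above the WT mean at each age, but the libraries of the 2 genotypes overlapped at each age, and clnor 10 DAP replicate 3 (60465 TPM) was the highest library of all. The other 2 libraries of that group were at 49149.8 and 45041 TPM. No test is given for the sum, since the members were chosen with earlier results of these data known. TPM is scaled to a fixed total, so a lower sum is a lower share of a library's transcripts. Less mRNA of the members and more of other transcripts cannot be told apart. In flesh sampled in bulk, fewer cells that hold this mRNA and a lower share within cells cannot be told apart either.

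The balance between the subunits differed most between 26 DAP and the other ages. The ratio of summed 60S to summed 40S TPM was 1.34 ± 0.04 (SD, n = 3) in WT at 10 DAP, 1.48 ± 0.07 at 18 DAP, 1.12 ± 0.06 at 26 DAP, 1.30 ± 0.02 at 34 DAP and 1.42 ± 0.05 at 42 DAP. In clnor it was 1.38 ± 0.15, 1.42 ± 0.11, 1.11 ± 0.02, 1.25 ± 0.06 and 1.34 ± 0.05 at the same ages. The 6 libraries of 26 DAP, at 1.08 to 1.19, lay below the other 24 libraries, whose lowest was 1.22, while WT and clnor overlapped at every age. The 40S members S15a-2-like, S20-2-like and S24 had their highest WT group mean at 26 DAP, at 336, 1414 and 1191 TPM. The 40S members did not rise as a group. Of 65, 8 were called higher and 10 lower in WT at 26 than at 10 DAP (20.1% and 20.9% of all genes tested), with a median log2 difference of 0.0027. In clnor 4 were higher and 18 lower (19.6% and 15.2%). Of the 94 60S members, 12 were higher and 10 lower in WT, and 2 and 30 in clnor, beside the same shares. Their median log2 differences were -0.043 and -0.32. From 10 to 26 DAP the WT sums went from 18434 to 20608 TPM (40S) and 24665 to 23041 TPM (60S). In clnor they went from 21656 to 21781 TPM and 29896 to 24092 TPM. The highest 60S sum, 36434 TPM, was in clnor 10 DAP replicate 3. The ratio is a description and was not tested.

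**Figure D2:**
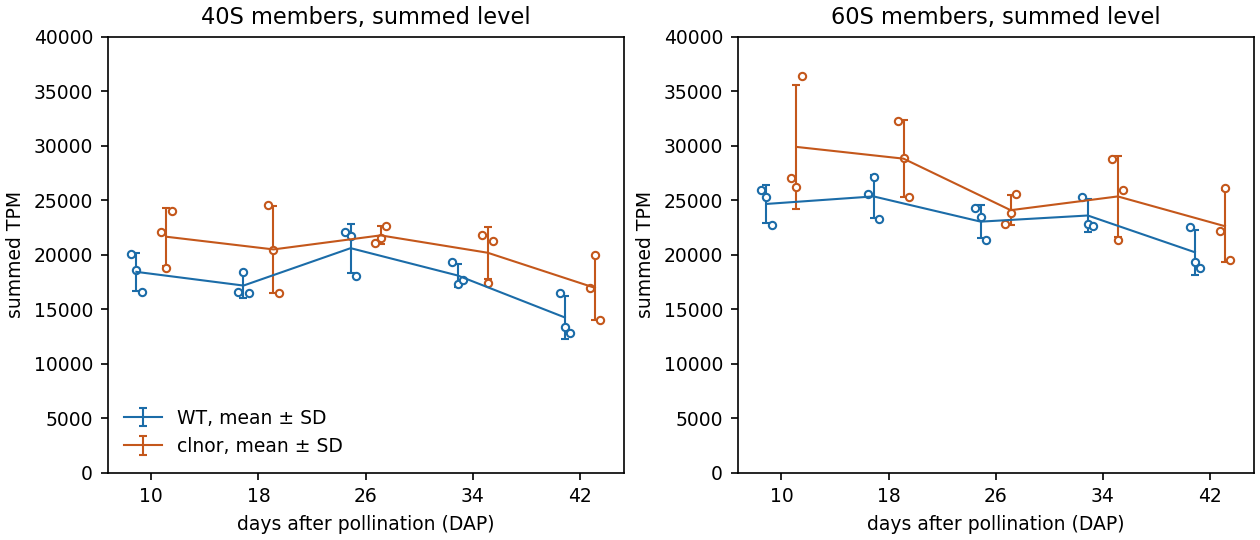
Summed TPM of the 40S members (left) and of the 60S members (right) against age in DAP, with open points for libraries, lines through group means and error bars of 1 SD (n = 3), WT in blue and clnor in orange. The WT mean is lowest at 42 DAP in both panels, at 14251 TPM for the 40S and 20232 TPM for the 60S members, and the highest 60S point is clnor 10 DAP replicate 3.

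Within WT fruit, members moved in both directions, and the balance turned to lower levels at 42 DAP. Against 10 DAP, 18 of 159 members were higher and 13 lower at 18 DAP (16.8% and 15.5% of all genes tested), and 20 higher and 20 lower at 26 DAP (20.1% and 20.9%). At 34 DAP 22 were higher and 25 lower (19.1% and 29.4%), and at 42 DAP 18 were higher and 45 lower (26.7% and 24.2%). The members' shares were below those of all genes in both directions at 18, 26 and 34 DAP, and at 42 DAP their rises were again fewer, while 45 falls of 159 stood beside 24.2%. The median log2 difference of the members from 10 to 42 DAP was -0.16, against 0.036 over all genes. With libraries scaled to their upper quartile the counts were 12 higher and 16 lower at 18 DAP and 10 and 56 at 42 DAP. With the members' sum set equal in every library, 41 were higher and 26 lower at 42 DAP. That setting removes any change the members share, so it cannot show their common direction, only which members moved relative to the rest. The count at 18 DAP, 31, ranged from 9 to 36 members with 1 library left out: it was 36 (25 higher and 11 lower) for WT 18 DAP replicate 3, 9 when WT 18 DAP replicate 2 was the one omitted, 13 for WT 18 DAP replicate 1, 18 for WT 10 DAP replicate 1 and 20 for WT 10 DAP replicate 3. At 26 DAP it was 26 with WT 10 DAP replicate 2 omitted.

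Among members at 10 TPM or more in some group, the largest called rises in WT from 10 to 34 DAP were in L29, an L18a-like protein, S16 and S13. The L18a-like gene (Cla97C03G058330) was at 74.6, 59.8 and 62.6 TPM at 10 DAP and 113, 117 and 122 TPM at 34 DAP, a log2 difference of 0.83 ± 0.12 (SE, limma adjusted p = 9.38e-06). S16 (Cla97C05G092200), whose tail reaches the peptidyl tRNA, went from 122, 145 and 126 TPM to 248, 233 and 199 TPM, 0.78 ± 0.21 (adjusted p = 0.00317). S13 (Cla97C10G187650), part of a bridge between the subunits, went from 128, 146 and 124 TPM to 221, 238 and 210.04 TPM, 0.75 ± 0.20 (adjusted p = 0.00335). In all 3 genes the 34 DAP libraries lay above the 10 DAP libraries. L29 (Cla97C06G114130) rose most, 0.88 ± 0.31 (adjusted p = 0.0227), but the call was lost when WT 10 DAP replicate 3 was left out (log2 difference 0.83, adjusted p = 0.0641) or WT 34 DAP replicate 1 (0.79, adjusted p = 0.0771).

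The largest called falls in WT from 10 to 34 DAP were in S8, L28-1-like, L26-1-like and L34. S8 (Cla97C11G218020) was at 349.5, 303 and 269 TPM at 10 DAP and 122, 132 and 114 TPM at 34 DAP, a log2 difference of -1.31 ± 0.19 (SE, limma adjusted p = 8.61e-06). It was lower still at 42 DAP, 115, 93.7 and 86.3 TPM, -1.64 ± 0.19 (adjusted p = 4.82e-07). L26-1-like (Cla97C02G038330), a 60S protein beside the exit tunnel, went from 482, 401 and 364 TPM to 208, 199 and 231 TPM, -0.96 ± 0.22 (adjusted p = 0.00113). In L34 (Cla97C06G125840) the change was from 933, 861 and 803 TPM to 432, 455 and 463 TPM, -0.94 ± 0.16 (adjusted p = 6.44e-05). The 10 and 34 DAP libraries did not overlap in these 3 genes. L28-1-like (Cla97C11G208260) went from 131, 135 and 105 TPM to 69.6, 57.0 and 58.1 TPM, -0.99 ± 0.20 (adjusted p = 0.000354), also without overlap. None of the alternatives run removed these 4 calls.

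Within clnor fruit most called changes were falls. Against 10 DAP, 0 members were higher and 3 lower at 18 DAP (4.1% and 2.98% of all genes tested), and 6 higher and 48 lower at 26 DAP (19.6% and 15.2%). At 34 DAP 3 were higher and 20 lower (13.2% and 11%), and at 42 DAP 5 were higher and 55 lower (21.5% and 17.5%). The members' median log2 difference was -0.25 at 26 DAP, -0.20 at 34 DAP and -0.31 at 42 DAP. These counts rest in part on clnor 10 DAP replicate 3, the library with the highest sum: without it, the medians at these ages were -0.051, -0.027 and -0.12, and 25 members were higher and 4 lower at 18 DAP, 10 higher and 27 lower at 26 DAP, 9 higher and 8 lower at 34 DAP, and 18 higher and 38 lower at 42 DAP. At 18 DAP the count was 0 without clnor 10 DAP replicate 1, clnor 10 DAP replicate 2 or clnor 18 DAP replicate 3. It was 35 without clnor 26 DAP replicate 2 at 26 DAP, 9 without clnor 34 DAP replicate 2 at 34 DAP and 36 without clnor 42 DAP replicate 3 at 42 DAP. Quantile normalization gave 6 higher and 10 lower at 34 DAP. With the members' sum set equal in every library, 1 was higher and 1 lower at 18 DAP, 20 higher and 34 lower at 26 DAP, 9 higher and 10 lower at 34 DAP, and 37 higher and 17 lower at 42 DAP.

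From 10 to 42 DAP in clnor the largest called falls were in L34, S11, L26-1-like and L37a-2. The L34 gene Cla97C09G179680 was at 875, 737 and 693 TPM at 10 DAP and 272, 383 and 233 TPM at 42 DAP, a log2 difference of -1.40 ± 0.26 (SE, limma adjusted p = 0.00021). S11 (Cla97C08G156880) went from 581, 467 and 613 TPM to 256, 373 and 218 TPM, -0.997 ± 0.21 (adjusted p = 0.000636), and L26-1-like from 483, 322 and 432 TPM to 202, 266 and 168 TPM, -0.96 ± 0.22 (adjusted p = 0.00163). None of the 3 overlapped between the ages. The fall of L37a-2 (Cla97C05G083620), a zinc-binding 60S protein, of -0.96 ± 0.28 (adjusted p = 0.00822) was lost without clnor 42 DAP replicate 1 (log2 difference -0.78, adjusted p = 0.0544).

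The largest called rises in clnor from 10 to 42 DAP were in S15a-2-like, S16, S27 and the L18a-like gene. S15a-2-like (Cla97C08G147540) was at 178, 125 and 119 TPM at 10 DAP, 451, 595 and 461 TPM at 26 DAP, 431, 474 and 509 TPM at 34 DAP and 345, 432 and 260.1 TPM at 42 DAP. The log2 differences from 10 DAP were 1.84 ± 0.24 (adjusted p = 9.48e-06), 1.76 ± 0.24 (adjusted p = 2.13e-05) and 1.29 ± 0.24 (adjusted p = 0.000247), and at each of these ages all 3 libraries lay above those of 10 DAP. S16 went from 145, 120.3 and 207 TPM to 285, 311 and 238 TPM, 0.85 ± 0.21 (adjusted p = 0.00246), without overlap. S27 (Cla97C09G166330), at the low level of 8.66, 11.3 and 11.1 TPM at 10 DAP, rose to 15.6, 14.8 and 17.5 TPM, 0.59 ± 0.17 (adjusted p = 0.00767), and the L18a-like gene from 71.5, 79.4 and 64.6 TPM to 105, 101 and 97.6 TPM, 0.49 ± 0.12 (adjusted p = 0.00303). Fitted on the 2 groups alone, S27 and the L18a-like gene were not called (adjusted p = 0.0572 and 0.0524).

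Part of the late falls were called in both genotypes, which share no library in these comparisons. From 10 to 42 DAP, 32 members were called lower in both, 71.1% of the 45 in WT and 58.2% of the 55 in clnor, while among all genes tested the shares were 44.9% and 62.1%. From 10 to 26 DAP, 16 were, 80% of the 20 in WT and 33.3% of the 48 in clnor (48.4% and 66.5% among all genes), and from 10 to 34 DAP 7 were, 28% of 25 and 35% of 20 (25.4% and 68%). Called rises were few in clnor. In common were 5 members at 26 DAP, 25% of the 20 in WT and 83.3% of the 6 in clnor (59.5% and 61.1% among all genes). At 34 DAP 1 was, 4.55% of 22 and 33.3% of 3 (33.4% and 48.2%), and at 42 DAP 3 were, 16.7% of 18 and 60% of 5 (47.6% and 59.1%). At 42 DAP, 1 member was higher in WT and lower in clnor than at 10 DAP, L35 (Cla97C09G181650), a pair of calls that other alternatives removed.

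**Figure D3:**
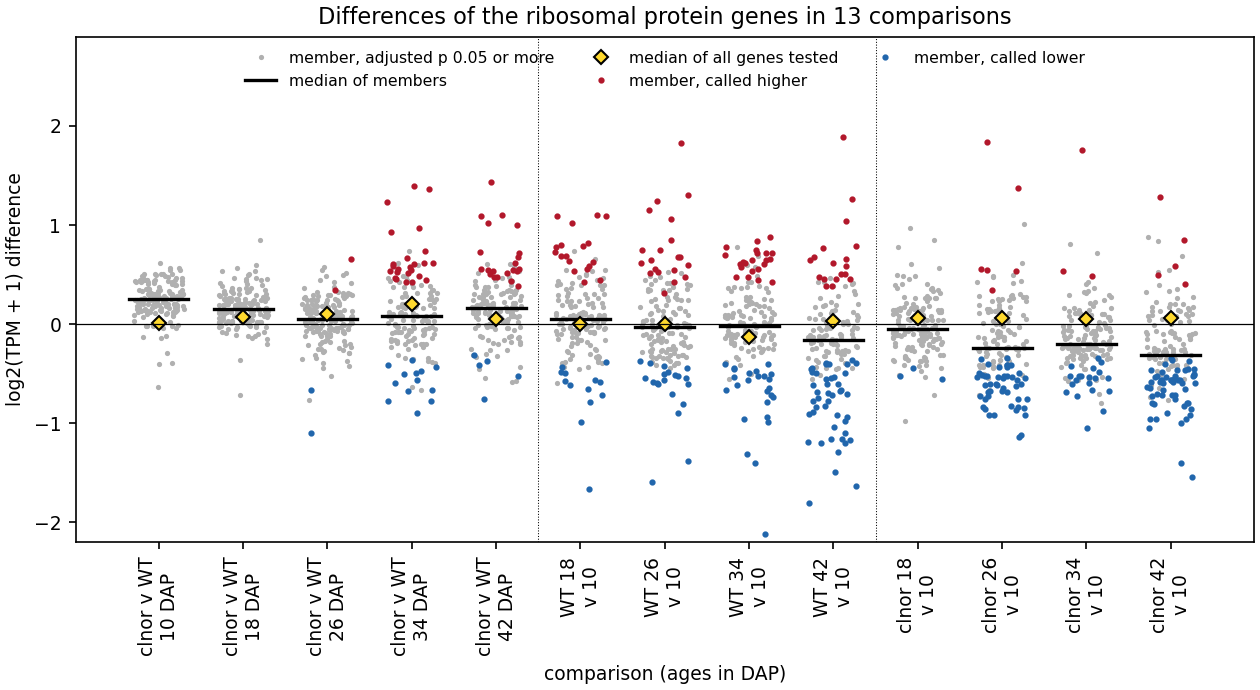
Differences in log2(TPM + 1) of the members (1 point per member, red where called higher, blue where called lower, grey otherwise) in each comparison of clnor with WT and of an age with 10 DAP, with a black line at the members' median and a yellow diamond at the median of all genes tested. No point is coloured in clnor against WT at 10 and 18 DAP, and blue points prevail at 42 against 10 DAP in both genotypes.

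At 10 and 18 DAP no single member passed the test between clnor and WT. At 10 DAP 0 members were called (0.248% of all genes tested were higher and 0.224% lower) and at 18 DAP 0 (1.38% and 0.97%) by limma. An unadjusted limma p below 0.05 was found for 31 and 17 of 159 members, beside 1766 and 3181 of the 16503 genes tested. The members leaned to clnor, with a positive difference for 145 of 159 at 10 DAP (median log2 difference 0.26, against 0.013 over all genes) and for 136 at 18 DAP (0.15, against 0.072). Over all 16503 genes tested, the difference was positive for 8594 at 10 DAP and 9658 at 18 DAP. Without clnor 10 DAP replicate 3 the members' difference at 10 DAP was positive for 117, with a median of 0.084. At 18 DAP it was positive for 133 (median 0.25) without clnor 18 DAP replicate 3 and for 108 (0.10) without WT 18 DAP replicate 3. The 18 DAP count depends on the 2 libraries of that age whose member levels were nearer to the other genotype: 19 members were higher and 0 lower without clnor 18 DAP replicate 3, 5 and 0 without WT 18 DAP replicate 3, and 20 and 1 without both. At 10 DAP, 1 member was called when WT 10 DAP replicate 1 was omitted, while omitting clnor 10 DAP replicate 1 gave 2.

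At 26 DAP 4 members were called, 2 higher and 2 lower in clnor (9.66% and 5.8% of all genes tested), a smaller share than among all genes. The higher members were L7a-2 (Cla97C01G005470), with 213, 197 and 239 TPM in WT and 272, 277 and 272 TPM in clnor, a log2 difference of 0.34 ± 0.10 (SE, limma adjusted p = 0.023), and L28-1-like, with 106, 100.5 and 72.7 TPM and 147, 159 and 132 TPM, 0.66 ± 0.20 (adjusted p = 0.03). Lower were S23-1 (Cla97C02G040420), a protein of the decoding centre, with 23.2, 16.5 and 12.3 TPM in WT and 7.17, 6.23 and 8.69 TPM in clnor, -1.10 ± 0.28 (adjusted p = 0.0104), and L10-like (Cla97C07G137140), which joins the 60S subunit late in its assembly, -0.66 ± 0.20 (adjusted p = 0.0288). L10-like was at 119, 190.5 and 72.3 TPM in WT and 77.2, 75.9 and 70.0 TPM in clnor, so the groups overlapped, while the other 3 did not. Each call was lost with some library left out. Without WT 26 DAP replicate 1 the adjusted p of S23-1 was 0.0714, without WT 26 DAP replicate 2 those of L10-like and L7a-2 were 0.263 and 0.13, and without WT 26 DAP replicate 3 that of L28-1-like was 0.143. The count was 1 in each fit that left out WT 26 DAP replicate 1, WT 26 DAP replicate 2 or clnor 26 DAP replicate 2, and 2 for clnor 26 DAP replicate 1 or 3. Upper-quartile scaling gave 2 higher and 3 lower, and members' sums set equal gave 3 and 7.

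At 34 and 42 DAP differences between the genotypes were frequent, but not more so than among all genes. At 34 DAP 24 members were higher and 13 lower in clnor (27.4% and 12.1% of all genes tested), 12 and 3 of the 40S and 12 and 10 of the 60S members. At 42 DAP 21 were higher and 5 lower (18.8% and 13.8%), 10 and 0 of the 40S and 11 and 5 of the 60S members. Of the members called higher, 14 were so at both ages, 58.3% of those at 34 DAP and 66.7% of those at 42 DAP, against 53.1% and 77.2% among all genes tested. Of the members called lower 4 were, 30.8% and 80%, against 66.7% and 58.3%. The direction of the balance at 34 DAP depends on the scaling. It was 17 higher and 18 lower with upper-quartile scaling, under which the median of all genes was 0.12 in place of 0.20, and 28 and 10 with quantile normalization. With the members' sum set equal, which removes a change they share, it was 19 and 23. At 42 DAP that setting gave 10 and 16. With 1 library of 42 DAP left out, the count there was 13 for WT 42 DAP replicate 2, 14 for WT 42 DAP replicate 3 and 15 for clnor 42 DAP replicate 1.

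The members higher in clnor with the smallest p at both ages were S8, S15a-2-like and L28-1-like. S8 (Cla97C11G218020) stood at 122, 132 and 114 TPM in WT and 335, 281 and 341 TPM in clnor at 34 DAP, and at 115, 93.7 and 86.3 TPM and 276, 305 and 223 TPM at 42 DAP. The log2 differences were 1.37 ± 0.19 (SE, limma adjusted p = 8.24e-06) and 1.44 ± 0.19 (adjusted p = 5.37e-06). At 10 DAP the libraries of the 2 genotypes overlapped, 349.5, 303 and 269 TPM in WT and 361, 294 and 445 TPM in clnor, and within clnor S8 was not called at 34 or 42 DAP against 10 DAP (adjusted p = 0.536 and 0.0727). S15a-2-like (Cla97C08G147540) was at 167, 162 and 212 TPM in WT and 431, 474 and 509 TPM in clnor at 34 DAP, 1.39 ± 0.24 (adjusted p = 9.91e-05), and at 204, 147 and 129 TPM and 345, 432 and 260.1 TPM at 42 DAP, 1.10 ± 0.24 (adjusted p = 0.00121). It rose from 10 to 26 DAP in both genotypes, 1.15 ± 0.24 (adjusted p = 0.000645) in WT, and in WT it was no longer called higher at 34 DAP. L28-1-like (Cla97C11G208260) had 69.6, 57.0 and 58.1 TPM in WT and 165, 143 and 131 TPM in clnor at 34 DAP, 1.23 ± 0.20 (adjusted p = 5.37e-05), and 96.2, 74.7 and 72.7 TPM and 178, 169.5 and 147 TPM at 42 DAP, 1.02 ± 0.20 (adjusted p = 0.000497). In all 3 genes the genotypes did not overlap at either age, and no alternative run removed these calls. The comparison with clnor and that with 10 DAP share the late WT libraries.

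The 3 members lower in clnor with the smallest p at 34 DAP, L12-1, L35 and L6, were 60S genes also called higher in WT at 34 than at 10 DAP, a comparison that shares the WT libraries of 34 DAP. L6 (Cla97C10G195400) was at 64.0, 67.2 and 67.9 TPM in WT at 10 DAP, 116, 111 and 98.2 TPM at 34 DAP and 118, 115 and 113 TPM at 42 DAP, rises of 0.70 ± 0.14 (adjusted p = 0.000214) and 0.79 ± 0.14 (adjusted p = 4.96e-05). In clnor it was at 73.5, 70.3 and 60.4 TPM and 72.3, 68.9 and 62.6 TPM at the late ages, which is below WT, -0.66 ± 0.14 (adjusted p = 0.000503) and -0.76 ± 0.14 (adjusted p = 0.000163). L12-1 (Cla97C10G203500), which lies at the base of the stalk, had 402, 388 and 346 TPM in WT and 251, 189.7 and 227 TPM in clnor at 34 DAP, -0.77 ± 0.14 (adjusted p = 0.0002), and 303, 246 and 294 TPM and 183, 229 and 173 TPM at 42 DAP, -0.53 ± 0.14 (adjusted p = 0.00678). WT and clnor did not overlap in either gene at either age. L35 (Cla97C09G181650), a protein at the exit tunnel, was at 490.01, 527 and 442 TPM in WT and 336, 305 and 323 TPM in clnor at 34 DAP, -0.60 ± 0.12 (adjusted p = 0.000448). At 42 DAP L35 was at 388, 381 and 378 TPM and 287, 335 and 302 TPM. It rose in WT from 329, 259 and 297 TPM at 10 DAP, 0.38 ± 0.12 (adjusted p = 0.0113), and fell in clnor from 416, 315 and 449 TPM, -0.34 ± 0.12 (adjusted p = 0.0301). The fall in clnor was not called without clnor 10 DAP replicate 3 (-0.23, adjusted p = 0.157), in several other alternatives, or with the members' sum set equal, where the difference was 0.043 (adjusted p = 0.831), and the rise in WT was not called with upper-quartile scaling (adjusted p = 0.127) or without WT 10 DAP replicate 2 (0.0744). The L18a-like gene was also lower in clnor at 42 DAP, 130.5, 131 and 145 TPM in WT and 105, 101 and 97.6 TPM in clnor, -0.41 ± 0.12 (adjusted p = 0.0122), a call lost without WT 42 DAP replicate 3 (log2 difference -0.37, adjusted p = 0.06).

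**Figure D4:**
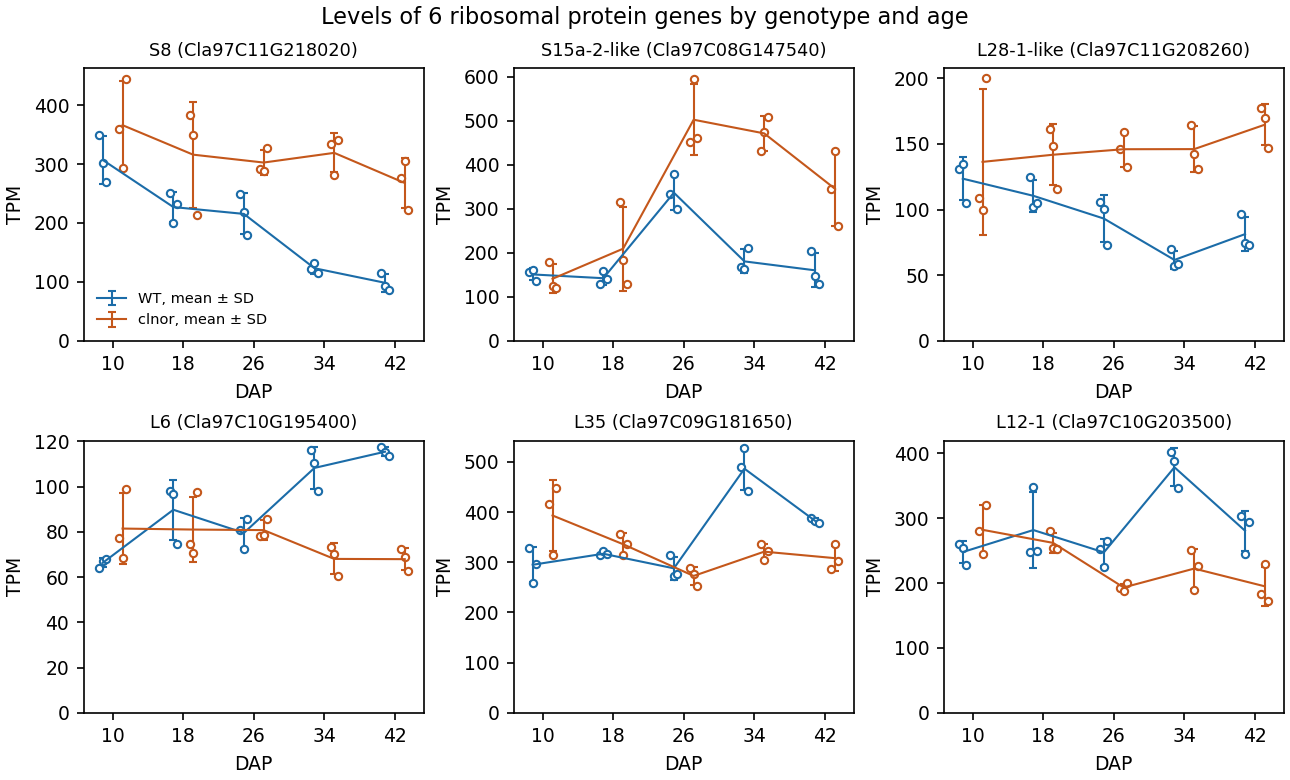
TPM of S8, S15a-2-like, L28-1-like, L6, L35 and L12-1 against age in DAP, with open points for libraries, lines through group means and error bars of 1 SD (n = 3), WT in blue and clnor in orange. At 34 DAP the clnor points lie above WT for S8, S15a-2-like and L28-1-like and below WT for L6, L35 and L12-1.

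Averaged over the 5 ages, 56 members were higher and 7 lower in clnor (31.8% and 16.4% of all genes tested), 27 and 3 of the 40S and 29 and 4 of the 60S members. The median log2 difference was 0.15, against 0.090 over all genes, and 132 of 159 differences were positive, beside 10043 of the 16503 genes tested. Besides S8 (0.80 ± 0.086 (adjusted p = 1.1e-07)), L28-1-like (0.67 ± 0.091 (adjusted p = 2.68e-06)) and S15a-2-like (0.68 ± 0.11 (adjusted p = 1.92e-05)), the S8 gene Cla97C07G142650 was among the 4 with the smallest p in this direction, 0.42 ± 0.065 (adjusted p = 1.22e-05). That S8 gene was at 206, 197 and 173 TPM in WT and 278, 294 and 276 TPM in clnor at 34 DAP, without overlap. Lower on average were S23-1 (-0.62 ± 0.13 (adjusted p = 0.000352)), L12-1 (-0.31 ± 0.064 (adjusted p = 0.000357)), L6 (-0.25 ± 0.061 (adjusted p = 0.00144)) and L10-like (-0.37 ± 0.091 (adjusted p = 0.00159)). S23-1 was at a low level, with group means from 7.36 TPM in clnor at 26 DAP to 19.6 TPM in WT at 18 DAP. L10-like was at 81.0, 65.7 and 70.6 TPM in WT and 45.4, 43.9 and 45.3 TPM in clnor at 34 DAP, also without overlap. Without clnor 10 DAP replicate 3 and clnor 18 DAP replicate 1, the 2 highest sums, 56 were called in place of 63. With the members' sum set equal in every library, 20 were higher and 27 lower.

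The change with age itself differed between the genotypes for 13 of 159 members, by an F test over the 4 later ages against 10 DAP, while 23.1% of all genes tested passed the same test. The 4 with the smallest adjusted p were L6 (0.0011), L35 (0.00158), S8 (0.00317) and L24 (0.00369). From 10 to 42 DAP the genotype difference changed by -1.03 ± 0.19 (log2, SE) for L6, -0.72 ± 0.17 for L35, 1.20 ± 0.27 for S8 and -0.69 ± 0.17 for L24. L24 (Cla97C10G202400), which forms a bridge to the 40S subunit, was at 32.1, 33.0 and 38.2 TPM at 10 DAP and 52.1, 59.6 and 47.5 TPM at 34 DAP in WT, 0.61 ± 0.12 (adjusted p = 0.000225), and at 45.6, 45.5 and 49.3 TPM and 44.4, 35.6 and 33.0 TPM in clnor. WT libraries thus lay below clnor at 10 DAP and above it at 34 DAP, without overlap at either age, and L24 did not pass with the members' sum set equal (adjusted p = 0.106). The other 9 were L12-1, L7a-2 (Cla97C01G005470), L7-1, L28-1-like, S15a-2-like, S10-1, 2 genes of L18a and a low-level gene of S24 (Cla97C06G118880). Of these 9, L12-1, L28-1-like and S15a-2-like passed under all alternatives run, and each of the other 6 did not pass under at least 1. Without clnor 10 DAP replicate 3 the adjusted p was 0.0749 for S10-1, 0.067 for L7-1 and 0.0542 for the L18a gene Cla97C03G058290, and without clnor 10 DAP replicate 1 it was 0.0592 for L7a-2.

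The stalk was followed through its 6 tested genes, P0, which carries the other stalk proteins, 3 P2 genes, P3-2 and a gene described only as an acidic ribosomal protein family. P0 (Cla97C07G132520) was at 209.9, 210.1 and 184 TPM in WT at 10 DAP and 385, 354 and 332 TPM at 18 DAP, a log2 difference of 0.82 ± 0.22 (SE, limma adjusted p = 0.00772), and back at 234, 179 and 179 TPM at 26 DAP. In clnor P0 was at 179, 184 and 464 TPM at 10 DAP and 357, 359 and 390.4 TPM at 18 DAP. The single high library at 10 DAP is clnor 10 DAP replicate 3, and the difference was not called. P3-2 (Cla97C11G217890), of a stalk protein found in plants, rose in WT from 396, 438 and 357 TPM at 10 DAP to 703, 585 and 578 TPM at 34 DAP, 0.64 ± 0.18 (adjusted p = 0.00568). At 34 DAP it was lower in clnor, 532, 341 and 404 TPM, -0.56 ± 0.18 (adjusted p = 0.0171), without overlap, but not without WT 34 DAP replicate 1 (adjusted p = 0.0811) or clnor 34 DAP replicate 2 (0.11). The acidic family gene (Cla97C10G191980) was called higher in WT at 26, 34 and 42 DAP than at 10 DAP, each call lost without WT 10 DAP replicate 3 (adjusted p = 0.0862, 0.175 and 0.16). P2-4-like (Cla97C05G103390) averaged 375 TPM and was called lower in clnor at 26 than at 10 DAP, -0.60 ± 0.22 (adjusted p = 0.0364), a call lost without clnor 10 DAP replicate 3 (log2 difference -0.32, adjusted p = 0.256). P2-1-like (Cla97C02G048100) was called in no comparison. P2-like (Cla97C04G076720), the lowest member, was at 3.16, 2.19 and 1.65 TPM at 10 DAP and 0.12, 0.24 and 0.13 TPM at 42 DAP in WT. It reached 1 TPM in 5 libraries, among them all 3 of WT at 10 DAP. It thus passed the minimum only through the group where it was high, so no test of its fall is given. It remains in the counts of called members.

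Large changes with age were also called in copies of L3, S17, L36 and L18a. These 4 genes were chosen after their values were seen, for the size of those changes. L3-2 (Cla97C11G219180), a copy of a protein near the peptidyl transferase centre whose other gene averaged 397 TPM, was at 9.68, 8.57 and 11.1 TPM in WT at 10 DAP, 55.7, 46.0 and 20.0 TPM at 26 DAP and 10.3, 11.1 and 9.47 TPM at 34 DAP. In clnor it was at 8.19, 12.5 and 21.5 TPM at 10 DAP and 42.0, 27.8 and 38.1 TPM at 26 DAP, so it rose at 26 DAP in both genotypes, 1.83 ± 0.34 (adjusted p = 0.000175) in WT and 1.37 ± 0.34 (adjusted p = 0.00323) in clnor. S17-like (Cla97C10G201590) was at 26.5, 27.5 and 24.8 TPM in WT at 10 DAP, 55.1, 68.9 and 49.1 TPM at 18 DAP and 29.1, 18.9 and 18.8 TPM at 26 DAP, a rise at 18 DAP of 1.09 ± 0.23 (adjusted p = 0.00132). In WT the L36 gene Cla97C04G074930 went from 9.31, 12.4 and 10.9 TPM at 10 DAP to 30.0, 51.6 and 50.3 TPM at 42 DAP, 1.89 ± 0.40 (adjusted p = 0.000453), and its clnor libraries of 42 DAP, at 28.9, 26.3 and 30.4 TPM, all lay below 2 of the 3 WT libraries. An abundant L18a gene (Cla97C01G024480) fell in clnor from 734, 704 and 819.5 TPM at 10 DAP to 329, 331 and 376 TPM at 26 DAP, -1.12 ± 0.13 (adjusted p = 3.32e-06), and was at 583, 399 and 530.4 TPM at 34 DAP. Each of these 5 calls held under all 15 alternatives run for it.

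Genes for the same protein did not always move together. In WT against 10 DAP, 2 of 61 proteins had calls in both directions at 18 DAP, 6 at 26 DAP, 4 at 34 DAP and 5 at 42 DAP. The genes shown for L7a, L7, S29 and L12 were chosen after their values were seen, because they were called in opposite directions. The 2 L7a-2 genes Cla97C01G005470 and Cla97C01G005480 lie in adjacent rows of the table. In WT, Cla97C01G005470 was at 416, 395 and 396 TPM at 10 DAP and 248, 271 and 269 TPM at 34 DAP, -0.61 ± 0.10 (adjusted p = 3e-05), while Cla97C01G005480 was at 45.7, 39.5 and 41.4 TPM and 76.8, 64.8 and 50.9 TPM, 0.58 ± 0.15 (adjusted p = 0.00357). The ages did not overlap in either gene, and 1 fell while its neighbour rose. The same opposite calls were made at 26 DAP, -0.90 ± 0.10 (adjusted p = 7.71e-07) and 0.75 ± 0.15 (adjusted p = 0.000502), and at 42 DAP, -0.40 ± 0.10 (adjusted p = 0.00202) and 0.66 ± 0.15 (adjusted p = 0.00114). The third gene, L7a-2-like (Cla97C05G095490), had the highest level of all members and fell at 42 DAP, so at that age 2 of 3 genes were lower. Of the 4 L7 genes, L7-1 (Cla97C09G175560) went from 74.0, 60.5 and 70.8 TPM at 10 DAP to 95.9, 105 and 103 TPM at 34 DAP in WT, 0.56 ± 0.11 (adjusted p = 0.000296), and the more abundant L7-4-like (Cla97C06G123170) from 575, 542 and 475 TPM to 344, 319 and 330.02 TPM, -0.68 ± 0.17 (adjusted p = 0.00262). L7a had called genes in both directions at 26, 34 and 42 DAP, and L7 at 34 and 42 DAP, under all 15 alternatives run for each. The L18a-like protein did so at 26 DAP. Every other WT case counted above was lost under at least 1 alternative. S16 at 18 DAP and S11 at 26 DAP kept calls both ways under only 6 of 15, and L27a at 18 DAP under 14.

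Between the genotypes, 3 of the 61 proteins with 2 or more genes had calls in both directions at 34 DAP (S29, L12 and L7), 1 at 42 DAP (L12) and 4 averaged over the ages (S29, L12, L10 and L6). The S29 gene Cla97C10G193430, for a zinc-binding 40S protein, was higher in clnor, 513, 306 and 617 TPM in WT and 764, 826 and 1149.9 TPM in clnor at 34 DAP, a log2 difference of 0.97 ± 0.23 (SE, limma adjusted p = 0.00159), and Cla97C02G033720 was lower, 488, 579 and 502 TPM and 291, 331 and 290.2 TPM, -0.78 ± 0.29 (adjusted p = 0.0332). Neither overlapped, but the call of Cla97C02G033720 was lost with any 1 of the 6 libraries of 34 DAP left out (adjusted p from 0.0508 to 0.0998). Averaged over the ages, the 2 S29 genes differed by 0.52 ± 0.10 (adjusted p = 0.000205) and -0.47 ± 0.13 (adjusted p = 0.00406), and both calls held under all 39 alternatives run. The L12-1 gene Cla97C04G075730, less abundant than Cla97C10G203500, was at 69.2, 71.0 and 50.5 TPM in WT and 102, 92.8 and 90.1 TPM in clnor at 34 DAP, 0.59 ± 0.21 (adjusted p = 0.0274), and at 65.3, 58.2 and 56.8 TPM and 103, 106 and 82.1 TPM at 42 DAP, 0.67 ± 0.21 (adjusted p = 0.0149), each without overlap. At 34 DAP its call was lost without WT 34 DAP replicate 3 (log2 difference 0.43, adjusted p = 0.149), clnor 34 DAP replicate 1 (0.0799) or clnor 34 DAP replicate 2 (0.0542), and at 42 DAP without WT 42 DAP replicate 3 (0.0545), clnor 42 DAP replicate 1 (0.0539) or clnor 42 DAP replicate 2 (0.0541). Averaged over the ages, the differences of the 2 L12-1 genes were 0.39 ± 0.093 (adjusted p = 0.00121) and -0.31 ± 0.064 (adjusted p = 0.000357), and L12 had calls in both directions under all 39 alternatives. On that average L10 kept calls both ways under 27 of 39 and L6 under 38, and L7 at 34 DAP did under 8 of 15.

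When the genes of each protein were summed before the fit, fewer of the 70 proteins differed between the genotypes. In clnor against WT none were called at 10 and 18 DAP, 0 were higher and 1 lower at 26 DAP, 10 higher and 3 lower at 34 DAP, 7 higher and 0 lower at 42 DAP, and 23 higher and 1 lower averaged over the ages. Of all rows in that fit, 27.4% were higher and 12.1% lower at 34 DAP. At 42 DAP the shares were 18.8% and 13.8%, and averaged they were 31.8% and 16.5%. Among changes with age, falls were more frequent than rises, with 2 proteins higher and 27 lower in WT and 1 and 29 in clnor from 10 to 42 DAP (26.8% and 24.2% of all rows in WT, 21.6% and 17.4% in clnor). The F test called 3 proteins, S15a, L18a and L35, beside 23.1% of all rows. The row for S15a holds only S15a-2-like, without the 2 S15a-1-like genes outside the rule. For S8, the 3 genes summed to 751 ± 33.9 TPM (SD, n = 3) in WT and 953 ± 108 TPM in clnor at 34 DAP. The share of the most abundant S8 gene (Cla97C08G148600) in that sum was 58.1 ± 2.66% in WT and 36.4 ± 5.18% in clnor, without overlap (55.3 to 60.5% against 31.3 to 41.6%).

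Other genes of translation were followed as lists taken from the descriptions. Of 106 ribosomal proteins of plastids and mitochondria tested, 46 were higher and 4 lower in WT at 34 than at 10 DAP (19.1% and 29.4% of all genes tested). At 42 DAP 39 were higher and 5 lower in WT (26.7% and 24.2%) and 46 and 7 in clnor (21.5% and 17.5%). Of 14 elongation and release factors, 8 were higher and 0 lower in clnor averaged over the ages, 7 and 0 at 34 DAP (27.4% and 12.1% of all genes) and 6 and 1 at 42 DAP (18.8% and 13.8%). Their sum was 4794 ± 534 TPM (SD, n = 3) in WT and 5864 ± 202 TPM in clnor at 34 DAP. Of 53 initiation factors 12 were higher and 8 lower on average, of 83 ribosome biogenesis genes 32 and 8, and of 18 RNA polymerase I and III subunits 7 and 0. The background for these averages is the same 31.8% higher and 16.4% lower of all genes tested.

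Levels of markers of other tissue and of dividing cells varied with age and genotype, and their part in the members' results was not tested. Core histones, 30 tested, were at 4224 ± 368 TPM (SD, n = 3) in WT and 5384 ± 589 TPM in clnor at 10 DAP, where the members' sum was also higher in clnor, and 18 of them were called lower in WT and 24 in clnor at 34 than at 10 DAP (29.4% and 11% of all genes tested). Seed genes (41 of 72 tested) summed to 6394 ± 686 TPM in WT and 3171 ± 315 TPM in clnor at 34 DAP, with 28 of the 72 at 0 in all 3 libraries of each, and 3258 ± 106 and 2642 ± 143 TPM at 42 DAP. Phloem genes (17 of 22 tested) summed to 125 ± 30.9 TPM in WT at 34 DAP, while the clnor libraries of that age ran from 111 to 1005 TPM. Genes of the epidermis and cuticle (10 of 19 tested) had group means from 76.1 TPM in WT at 26 DAP to 238 TPM in clnor at 18 DAP, and at 34 DAP ran from 89.3 to 109 TPM in WT and from 69.2 to 164 TPM in clnor.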

How the data were processed

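RNA from 30 flesh libraries was sequenced on an Illumina NovaSeq from TruSeq libraries, per the labels' protocols. The deposited table holds TPM made by the authors. Cufflinks, StringTie, HISAT2 and TopHat2 are named in the submitters' processing notes, with versions, genome build and annotation not given in the sources used here. All 30 value columns are of this study, and depth per library is unknown.

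Genes at 1 TPM or more in at least 3 libraries (16503) were tested as log2(TPM + 1) with limma 3.58.1 (trend and robust, statmod 1.5.0, R 4.3.3) in 1 model of 10 groups with 20 residual degrees of freedom. Tests were two-sided, with Benjamini-Hochberg adjustment over all genes tested, and adjusted p below 0.05 was called. The code was tested on simulated data.

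The members and lists were chosen with earlier results of these data known. Named members are the 6 most abundant, the 3 smallest p each way in each age's genotype comparison, 4 each way averaged, the 4 largest called changes each way in WT 34 and clnor 42 against 10 DAP, the 4 smallest p of the F test, and all stalk genes. Members under 10 TPM in every group were skipped where a test chose. This gave 33 genes, and others were chosen after their values were seen.

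Alternatives were a pseudocount of 0.1, no filter, a 5 TPM filter, upper-quartile and quantile scaling, neither trend nor robust, a replicate block, fits of the 2 groups alone, each library left out, and the third libraries of WT and clnor at 18 DAP left out together. Added after seeing the data were genes summed by protein, the members' sum set equal, and, for the average over ages, clnor 10 DAP replicate 3 and clnor 18 DAP replicate 1 (the 2 highest sums) left out together. Setting the members' sum equal removes any change they share, so it cannot show their common direction. Same-numbered WT and clnor libraries did not deviate together, with correlations over 0.1 in 4 of 15 pairs (range -0.41 to 0.25).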

Additional observations from a re-analysis of the deposited data

Results flagged for a closer look

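The named members were chosen from these same data, 4 of them by their p in the F test of the change with age, so their passing it is no separate result. Of all 159 members 13 passed (8.18%), beside 23.1% of all genes tested. For 8 of the named members the change with age differed between the genotypes in the F test over the 4 later ages (limma adjusted p, over all genes tested). They were L6 (Cla97C10G195400, adjusted p = 0.0011), L35 (Cla97C09G181650, 0.00158), S8 (Cla97C11G218020, 0.00317), L24 (Cla97C10G202400, 0.00369), L12-1 (Cla97C10G203500, 0.00946), S15a-2-like (Cla97C08G147540, 0.0161), L7a-2 (Cla97C01G005470, 0.0215) and L28-1-like (Cla97C11G208260, 0.0218). Between 10 and 42 DAP the genotype difference (clnor minus WT) rose by 1.20 for S8, 1.22 for S15a-2-like and 0.94 for L28-1-like on the log2 scale. For L7a-2 it changed by 0.27 ± 0.14 (SE, adjusted p = 0.188) over that interval, which was not called, and by 0.59 ± 0.14 (adjusted p = 0.00481) from 10 to 34 DAP. In the other 4 the genotype difference fell by 1.03 for L6, 0.72 for L35, 0.69 for L24 and 0.71 for L12-1 over the same interval.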

How the results depend on the processing

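Among the named members, 70 called values were recomputed under the alternatives, which gave 1375 values. Of these, 1276 kept their direction and call, 99 kept their direction and lost the call, and 0 reversed. Most of these members were chosen for a small p or a large change, and the alternatives refit largely the same libraries, so few reversals could arise. Counts of called members ranged with 1 library left out from 0 to 2 in clnor against WT at 10 DAP, 0 to 19 at 18 DAP, 1 to 5 at 26 DAP, 25 to 34 at 34 DAP, 13 to 28 at 42 DAP and 57 to 70 averaged over the ages. Against 10 DAP they ranged in WT from 9 to 36 at 18 DAP, 26 to 38 at 26 DAP, 33 to 41 at 34 DAP and 46 to 57 at 42 DAP, and in clnor from 0 to 29, 35 to 56, 9 to 30 and 36 to 72 at the same ages. The F test called 10 to 19. Fitted on the 2 groups alone, 2 members were called in clnor against WT at 26 DAP, 15 in WT at 18 DAP against 10 DAP, and 0, 19, 2 and 21 in clnor at 18, 26, 34 and 42 DAP against 10 DAP. The replicate block called 1 member at 18 DAP against 0 without it. Without WT 18 DAP replicate 3 and clnor 18 DAP replicate 3 together, 21 were called at 18 DAP. With the members' sum set equal, 10 were called at 26 DAP and 2 in clnor at 18 against 10 DAP. Summed by protein, the counts called of 70 were 1 at 26 DAP, 13 at 34 DAP, 7 at 42 DAP, 24 averaged, 6, 6, 15 and 29 in WT at 18, 26, 34 and 42 DAP, 0, 18, 8 and 30 in clnor at those ages, and 3 in the F test. The cause of these shifts was not tested. Depth is unknown, so no precision can be put on values near the minimum.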
